A study of Homo sapiens with 8 samples.

Results

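The amino acid transporters described here are 9 genes, SLC1A5, SLC3A2, SLC7A5, SLC7A1, SLC7A6, SLC7A11, SLC38A1, SLC38A2 and SLC1A4, out of 16474 genes with at least 1 count in the series. They were chosen by gene name, and each gene's level is the sum of the counts of all transcripts that GENCODE version 44 assigns to it. The RNA came from MOLM-13, a human acute myeloid leukemia cell line, carrying a lentiviral doxycycline-inducible shRNA. In 4 libraries the shRNA was directed against PTBP1 (shPTBP1, genotype PTBP1 KD), and in the other 4 it was a scrambled sequence (shSCR, labelled shControl with genotype WT). All 8 were treated with doxycycline for 9 days, so that the controls shared the drug and the vector. There was 1 shRNA in each arm, so loss of PTBP1 and any other effect of that sequence cannot be told apart. The 4 libraries of a group are labelled as biological replicates, without saying at which step they were separate, and p-values measure only the spread between them. Total RNA was copied to cDNA and read as long nanopore reads, and a count is the value the authors obtained with StringTie for an annotated transcript. How reads that match several transcripts were shared among them is not stated, so a count need not be 1 read.

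Amino acids cross the plasma membrane through carriers that exchange them or move them together with sodium. SLC1A5 exchanges neutral amino acids and is a main route for glutamine, while SLC38A1 and SLC38A2 take up glutamine and other small neutral amino acids with sodium. SLC3A2 is a heavy chain that carries light chains such as SLC7A5, which exchanges leucine and other large neutral amino acids, and SLC7A11, which exchanges cystine for glutamate. Proliferating leukemia cells use such carriers to supply protein synthesis, glutathione and mTORC1, the kinase complex that senses amino acids. PTBP1 binds pyrimidine-rich RNA and regulates splicing.

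The libraries held between 1528449 and 1613342 counts, and between 12322 and 12589 genes were detected in each. PTBP1 was at 6.25, 9.79, 8.45 and 14.5 normalized CPM (counts per 1000000) in shPTBP1 and at 39.4, 56.6, 42.2 and 49.4 in shSCR, where normalization used the TMM scaling of edgeR. The groups did not overlap, and PTBP1 fell by 2.26 on the log2 scale (SE 0.22, edgeR adjusted p = 7.18e-05). PTBP2, the paralog that PTBP1 is known to repress, rose from between 1 and 4 counts per library to between 185 and 199 (edgeR adjusted p = 2.13e-10). Of the myeloid markers, all 14 had counts, with ELANE, the neutrophil elastase gene, highest, and their summed level was 1540 to 1680 normalized CPM in shPTBP1 against 1416 to 1516 in shSCR. Of the 9 tested, 3 had a log2 fold change below 0, and the median was 0.10. An unadjusted p under 0.05 in edgeR was found for 4 of the 9, against 19.2% of all genes tested. After adjustment 1 of the 9 was called, against 5.54% of all genes tested. It was CSF1R, a monocyte receptor, which fell by 0.97 on the log2 scale (SE 0.25, edgeR adjusted p = 0.0376). That call was lost when any library other than shPTBP1 replicate 1 was left out, with the adjusted p then up to 0.116. Of 16 markers of other cells, 6 had no count in any library, and the list summed to 43.1 to 56.1 normalized CPM in shPTBP1 and 44.6 to 57.0 in shSCR. Most of that came from PECAM1, which leukocytes also carry, and COL1A2 added between 6.92 and 11.7 normalized CPM per library. The part of the higher summed myeloid markers in the results below was not tested.

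A result within SLC1A5 turned on the annotated start of its transcripts, and the sequences concerned are shown before the values. The ends of single reads were not examined. Reads that stop short of the first exon of SLC1A5-203 therefore cannot be told apart from the shorter forms. Whether transcription begins at the annotated start of a shorter form was not tested. SLC1A5 lies on the minus strand of chromosome 19 (46774883 to 46788594, hg38). Its longest form, SLC1A5-203, starts at position 46788594 with an exon of 1195 bases that holds the start of its 541 codons. SLC1A5-205 starts 3689 bases further downstream, at 46784905 in the intron after that exon, and encodes 365 codons. The bases before each start, from the RefSeq promoter table (GRCh38.p14, minus strand, read 5′ to 3′), are given so that the regions can be compared. The window of SLC1A5-203 covers chr19:46788595-46788844 and ends at its start. The window of SLC1A5-205 covers chr19:46784890-46785064 and runs 16 bases into the transcript. Capitals mark the letters TGATGNAA, a C/EBP-ATF response element of the kind ATF4 is known to bind at amino acid transporter genes.
SLC1A5-203 start: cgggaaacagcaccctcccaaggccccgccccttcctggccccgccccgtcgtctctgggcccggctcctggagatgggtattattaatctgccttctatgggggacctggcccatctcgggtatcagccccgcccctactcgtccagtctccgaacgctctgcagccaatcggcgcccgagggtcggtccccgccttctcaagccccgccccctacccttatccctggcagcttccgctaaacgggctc
SLC1A5-205 start: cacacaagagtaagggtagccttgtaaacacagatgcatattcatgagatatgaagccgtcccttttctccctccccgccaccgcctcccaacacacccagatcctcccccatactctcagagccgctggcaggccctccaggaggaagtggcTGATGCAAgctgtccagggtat

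The window before SLC1A5-203 had a G and C content of 66.8% and no match. The one around the start of SLC1A5-205 had a G and C content of 56.0% and 1 match, which begins 6 bases before the start and ends inside the transcript. Neither window held TGTGGT, the RUNX letters, on either strand. Over the 14 RefSeq windows (from before to just after a start) found for 8 of the 9 transporters, TGATGNAA occurred in 5, from SLC1A5, SLC1A4, SLC3A2, SLC7A1 and SLC38A1, against 3.62% of all 35116 windows, with both strands searched. TGTGGT occurred in 1 of the 14, from SLC38A1, against 13.1% of all windows. These matches describe letters and do not show binding.

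Per transcript length, the order of the 9 transporters in shSCR was SLC3A2 at 99.7 ± 12.2 TPM (transcripts per 1000000, SD, n = 4), SLC38A2 at 68.0 ± 7.76, SLC1A5 at 42.5 ± 4.97, SLC38A1 at 26.9 ± 3.67 and SLC7A1 at 17.8 ± 1.57. On this scale these 5 levels were separated from each other and from the rest, in that the libraries of neighbours did not overlap. SLC7A5 at 2.41 ± 0.479, SLC7A11 at 2.16 ± 0.566, SLC7A6 at 1.02 ± 1.32 and SLC1A4 at 0.657 ± 0.451 followed, and each of these overlapped its neighbour. TPM was computed here from the counts and the annotated transcript lengths, and the order depends on that division. A long read can cover a whole transcript, so the counts may need no division, which places short transcripts higher. Whether the counts rise with length was not tested. Without division by length, the mean normalized CPM in shSCR was 276 for SLC38A2, 158 for SLC3A2, 153 for SLC38A1, 116 for SLC7A1 and 86.6 for SLC1A5. There the libraries of SLC38A1 overlapped those of SLC3A2 and those of SLC7A1. On both scales the light chains SLC7A5 and SLC7A11 were lower than their heavy chain.

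Of the 9 genes, 7 had enough counts to be tested for a change of the gene level, and 0 passed an adjusted p under 0.05 in edgeR. Among all 7597 genes tested, 5.54% passed, 3.19% lower and 2.36% higher. At an unadjusted p under 0.05 there was 1 member of the 7, against 19.2% of all genes, and DESeq2 and limma-voom also called 0. The median log2 fold change of the 7 was -0.01, and that of all genes tested was 0 to 2 decimals. In bulk RNA, fewer cells with a transcript and less of it per cell cannot be told apart.

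**Figure D1:**
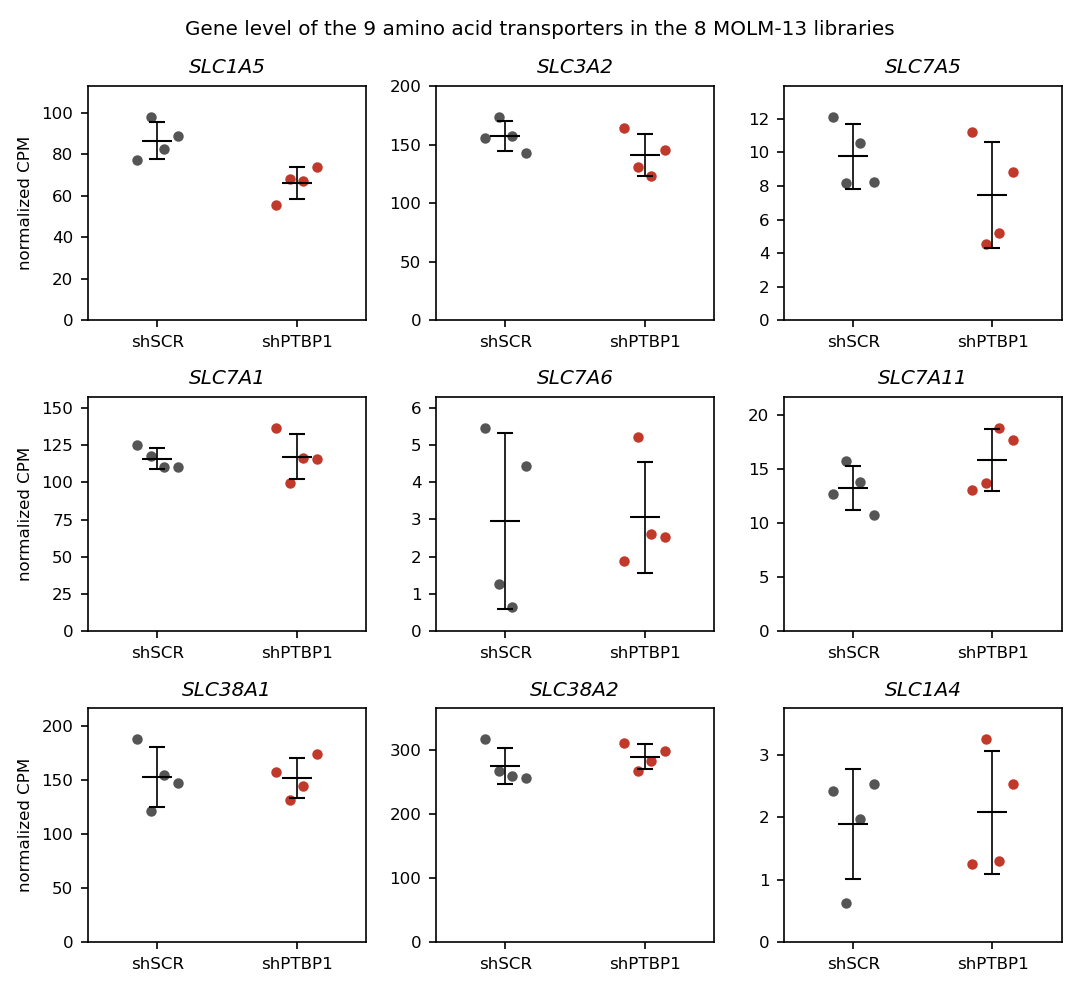
Normalized CPM (vertical axes, each from 0) of the 9 transporters in the 4 shSCR and 4 shPTBP1 libraries, with the points as libraries and the bars as mean ± SD. Only for SLC1A5, with 55.6 to 74.0 in shPTBP1 and 77.1 to 98.1 in shSCR, do the groups not overlap.

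Among the sodium-coupled and exchanging carriers of glutamine, SLC1A5 was at 55.6, 67.9, 67.0 and 74.0 normalized CPM in shPTBP1 and at 77.1, 98.1, 82.3 and 88.7 in shSCR. All shPTBP1 libraries were below all shSCR libraries. Groups that did not overlap were found for 12.7% of all genes tested. The log2 fold change was -0.39 (SE 0.11, 95% interval -0.63 to -0.15), with an adjusted p of 0.0604 in edgeR, just above the threshold. It came under the threshold when only genes with a mean of at least 50 counts were tested (adjusted p = 0.0345) and in limma-trend on the CPM table (adjusted p = 0.0422).

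SLC38A1 was at 157, 132, 145 and 175 normalized CPM in shPTBP1 and at 189, 121, 155 and 148 in shSCR, and the groups overlapped. Its log2 fold change was -0.01 with an interval of -0.27 to 0.26. SLC38A2, which cells are known to induce when amino acids are short, was at 312, 267, 284 and 298 normalized CPM in shPTBP1 and at 319, 267, 260 and 257 in shSCR. The groups overlapped here too, with a log2 fold change of 0.07 (interval -0.10 to 0.25). For these 2 genes a change of the size fitted for SLC1A5 lay outside the interval.

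The heavy chain SLC3A2 was at 164, 131, 124 and 145 normalized CPM in shPTBP1 and at 156, 174, 157 and 143 in shSCR. The highest shPTBP1 library lay among the controls, and the log2 fold change was -0.16 (SE 0.10, interval -0.37 to 0.05, edgeR adjusted p = 0.405). Among its light chains, SLC7A5 had 18, 7, 8 and 14 counts in shPTBP1 and 20, 13, 16 and 13 in shSCR. The groups overlapped, and the log2 fold change of -0.38 had an interval from -1.07 to 0.31, so that neither no change nor a fall larger than that of SLC1A5 was outside it. SLC7A11, the cystine carrier, had 21, 21, 29 and 28 counts in shPTBP1 and 21, 25, 21 and 17 in shSCR, with a log2 fold change of 0.25 (interval -0.20 to 0.71). SLC7A6, a light chain that exchanges cationic for neutral amino acids, had 19 counts in each group and was not tested. Its ratio of shPTBP1 to shSCR was 1.01, with an exact 95% counting interval of 0.508 to 2.02. SLC7A6 shares 3372 exonic bases with the opposite-strand gene SLC7A6OS, and reads of the pair cannot be told apart without knowing that the counting used strand.

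Counts of the 3 light chains together came to 16.0, 17.9, 21.6 and 20.0 for every 100 counts of SLC3A2 in shPTBP1 and to 19.5, 14.4, 15.9 and 16.4 in shSCR. These ratios carry no correction for length and serve only to compare libraries. The groups overlapped, because of shPTBP1 replicate 1 and shSCR replicate 1.

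Of the remaining members, SLC7A1, the main carrier of arginine and lysine, was at 137, 99.8, 116 and 116 normalized CPM in shPTBP1 and at 125, 118, 111 and 110 in shSCR. The groups overlapped, and the log2 fold change of 0.02 had an interval of -0.19 to 0.23. SLC1A4, a paralog of SLC1A5 that carries alanine, serine, cysteine and threonine, had 13 counts in shPTBP1 and 12 in shSCR and was not tested. Its ratio was 1.10, with a counting interval of 0.462 to 2.63, so that a change of either direction by a factor of 2 was not detectable at this depth.

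**Figure D2:**
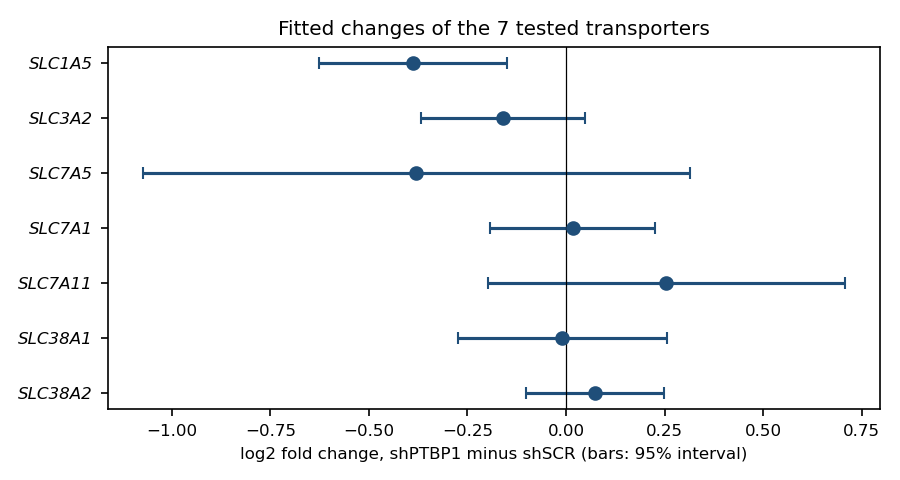
Log2 fold change of shPTBP1 against shSCR (horizontal axis) for the 7 transporters tested, with 95% intervals from edgeR as bars. The interval of SLC1A5, -0.63 to -0.15, is the only one that leaves out 0, and those of SLC7A5 and SLC7A11 are the widest.

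Within the genes, 58 transcripts of the members had counts, and 14 of them, in 4 genes, could be tested for their share of the gene's counts. By diffSpliceDGE of edgeR, 1 passed both an adjusted p under 0.05 and a shift of 10 percentage points or more, against 1.12% of the 5464 transcripts tested. It was SLC1A5-203, the full-length form. Another 5, all from SLC1A5 and SLC3A2, had an unadjusted p under 0.05 in diffSpliceDGE without being called. How many of all transcripts tested did so was not measured, so this count has no rate beside it. Shares of transcripts of the same gene are also not independent of each other.

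How often the groups do not overlap over all transcripts was not measured, so non-overlap of the transcripts and exons below has no rate beside it. SLC1A5-203 had 22, 15, 18 and 34 counts in shPTBP1 and 58, 81, 46 and 74 in shSCR, without overlap. It made up 21.4% ± 6.68 of the counts of SLC1A5 in shPTBP1 and 46.8% ± 7.40 in shSCR (SD, n = 4). The change of share was called by diffSpliceDGE with an adjusted p of 0.000898, and remained called in each of the 11 other fits that were run, with the adjusted p between 8.63e-05 and 0.017. In a test on single transcripts, added after these shares had been seen, SLC1A5-203 fell by 1.53 on the log2 scale (SE 0.24, interval -2.04 to -1.01, edgeR adjusted p = 0.00237). In that test 3.0% of 10207 transcripts were lower.

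SLC1A5-205, the other main transcript of the gene, had 49, 67, 59 and 54 counts in shPTBP1 and 49, 52, 53 and 47 in shSCR, and these overlapped. Its share was 55.7% ± 7.53 in shPTBP1 and 37.0% ± 4.35 in shSCR, a difference of 18.8 percentage points that diffSpliceDGE did not call (adjusted p = 0.094) and limma's diffSplice did (adjusted p = 0.00429). Its level had a log2 fold change of 0.20 (interval -0.11 to 0.51). SLC1A5-201, which begins in the intron next to the exon of SLC1A5-203 and encodes 313 codons, had 9, 12, 15 and 21 counts in shPTBP1 and 12, 12, 10 and 9 in shSCR. Its share was 13.5% ± 3.48 in shPTBP1 and 7.89% ± 1.24 in shSCR, and that change was not called by diffSpliceDGE (adjusted p = 0.453). Unlike their counts, the shares of SLC1A5-205 and SLC1A5-201 did not overlap between the groups. Shares within a gene sum to 100%, so they are not independent of the share of SLC1A5-203. SLC1A5-202, which starts near SLC1A5-205 and encodes 339 codons, had 9, 10, 11 and 7 counts in shPTBP1 and 8, 10, 16 and 9 in shSCR.

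**Figure D3:**
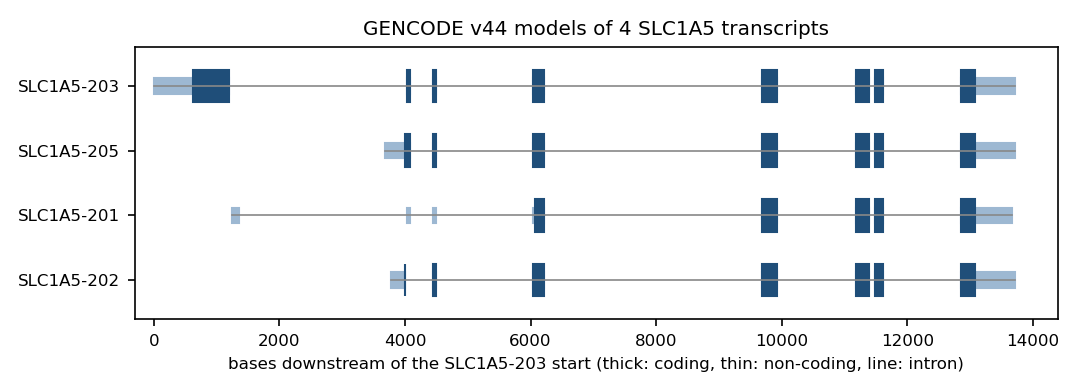
Annotated structure of 4 SLC1A5 transcripts, with bases downstream of the start of SLC1A5-203 on the horizontal axis, thick boxes for coding sequence, thin boxes for other exon sequence and lines for introns. Only SLC1A5-203 holds the long exon at the left, and SLC1A5-205 begins 3689 bases downstream.

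With SLC1A5-203 left out of the sum, SLC1A5 had a log2 fold change of 0.18 (SE 0.13, interval -0.09 to 0.46, edgeR adjusted p = 0.483), in a fit also added after the shares were seen. That form was left out because its fall had been seen, so the value restates that fall and is no separate evidence. Whether counts on upstream starts were lower in general was measured over all genes that allowed it. Over 935 genes with transcripts from different starts, the share of counts on the most upstream start changed by a median of -0.0131 percentage points, and its median per library was 53.8% to 55.9% in shPTBP1 and 54.7% to 55.3% in shSCR. The change of SLC1A5 in that measure was -25.5 points, and 10 of the 935 genes (1.07%) were at or below it.

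**Figure D4:**
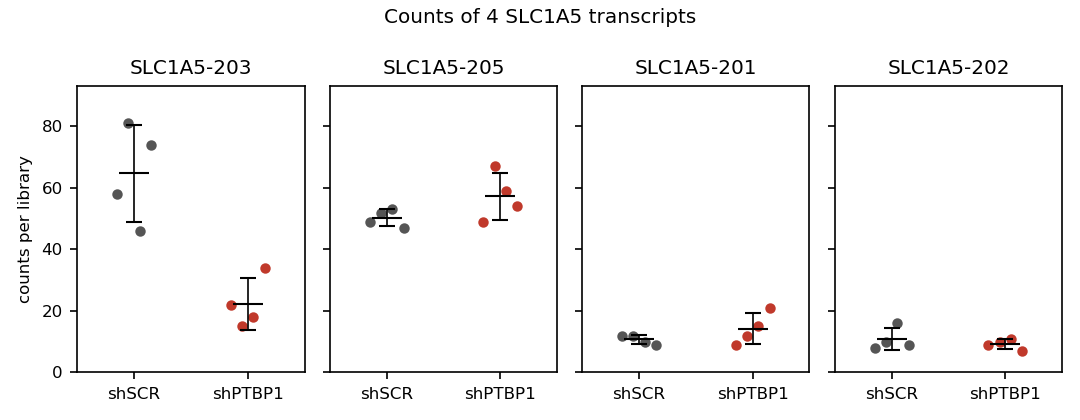
Counts per library (vertical axis, shared by the panels) of 4 SLC1A5 transcripts in shSCR and shPTBP1, with bars as mean ± SD over 4 libraries. SLC1A5-203 is lower in all shPTBP1 libraries (15 to 34) than in all shSCR libraries (46 to 81), and for the other transcripts the counts of the groups overlap.

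SLC3A2 lies on the plus strand of chromosome 11 (62856004 to 62888880, hg38). It had counts on 27 transcripts, more than any other member, and no change of share was called. The most counted was SLC3A2-224, annotated as a retained intron, with 33.4% of the gene's counts, followed by SLC3A2-201, which encodes 529 codons, with 30.7%. SLC3A2-224 starts at 62881699, downstream of the first exon of SLC3A2-201 (62880896 to 62881447). The ends of reads were not examined here either. Whether reads of other forms that stop short were counted on SLC3A2-224 was not tested. SLC3A2-224 made up 31.0% ± 3.39 in shPTBP1 and 35.4% ± 6.43 in shSCR, and SLC3A2-201 made up 32.4% ± 3.11 and 29.3% ± 4.69. SLC3A2-240, which encodes the same 529 codons, had 17, 17, 17 and 21 counts in shPTBP1 and 12, 21, 16 and 15 in shSCR. All 3 overlapped between groups. Protein-coding transcripts together took a mean of 62.1% in shPTBP1 and 59.5% in shSCR.

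Transcripts from the upstream start of SLC3A2 made up 20.8% ± 2.15 of its counts in shPTBP1 and 22.7% ± 1.94 in shSCR, also with overlap. They can hold up to 3 short exons, called A, B and C here in their order along the gene, whose lengths of 93, 93 and 96 bases are all multiples of 3. Of these transcripts, those with enough counts for a test of their share were SLC3A2-233, SLC3A2-204 and SLC3A2-211. SLC3A2-233, without exons A and C (603 codons), had 26, 18, 14 and 24 counts in shPTBP1 and 14, 16, 11 and 13 in shSCR. SLC3A2-204, which holds exons B and C (631 codons), had 4, 5, 8 and 11 counts in shPTBP1 and 11, 16, 20 and 16 in shSCR. SLC3A2-211, which holds all 3 exons (661 codons), had 6, 6, 5 and 7 counts in shPTBP1 and 12, 19, 13 and 13 in shSCR. The counts of SLC3A2-211 did not overlap between the groups. None of these changes of share was called by diffSpliceDGE (adjusted p = 0.252, 0.343 and 0.327), although in the added test on single transcripts SLC3A2-211 was lower (log2 fold change -1.22, SE 0.31, edgeR adjusted p = 0.036).

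The counts were then summed by exon, a summary chosen after these values were seen and therefore given without a test. Exon C was present in 20.8%, 26.8%, 32.5% and 33.3% of the upstream-start counts in shPTBP1 and in 45.1%, 54.7%, 56.9% and 54.7% in shSCR. These were 52 of 183 counts against 120 of 226, and the libraries of the groups did not overlap. The share of all alternative exons without overlap was not measured. Exon A was present in 14.6%, 17.1%, 20.0% and 13.0% in shPTBP1 and in 29.4%, 31.2%, 27.6% and 32.1% in shSCR, again without overlap. Exon B was present in 83.6% ± 0.921 in shPTBP1 and 85.8% ± 2.75 in shSCR, and there the libraries overlapped. Most counts with exon A came from SLC3A2-211, which holds all 3 exons, so the 3 values share counts and are not independent of each other.

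**Figure D5:**
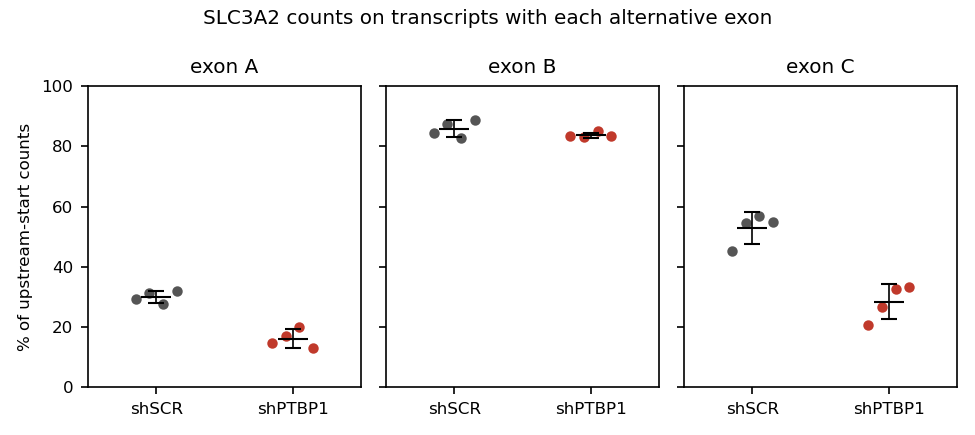
Share of SLC3A2 upstream-start counts on transcripts that hold exon A, B or C (vertical axis, percent) in the shSCR and shPTBP1 libraries, with bars as mean ± SD. Exons A and C are lower in all shPTBP1 libraries, and exon B lies between 82.8% and 88.7% in both groups.

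The remaining members had 1 dominant transcript or few counts. SLC38A2-201 held 95.9% ± 2.11 of SLC38A2 counts in shPTBP1 and 95.4% ± 0.661 in shSCR, and SLC38A1-201 held 87.4% ± 3.01 and 83.9% ± 6.91 of SLC38A1. SLC38A1-202 had 16, 18, 18 and 17 counts in shPTBP1 and 22, 37, 20 and 25 in shSCR. These did not overlap, but neither its share (diffSpliceDGE adjusted p = 1) nor its level (log2 fold change -0.58, edgeR adjusted p = 0.172) was called. SLC7A1 and SLC7A5 had counts on 1 transcript each, and SLC7A11-201 held 96.2% of SLC7A11 counts. The 38 counts of SLC7A6 were spread over 5 transcripts, with SLC7A6-201 and SLC7A6-209 most counted, at 36.8% and 31.6%, and SLC7A6-202, SLC7A6-217 and SLC7A6-212 at 18.4%, 7.9% and 5.3%. SLC1A4-201 held 92.0% of the 25 counts of SLC1A4, and SLC1A4-203 and SLC1A4-204 had 1 count each.

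Beside the members, lists of other genes of amino acid transport and use were counted in the same fit. Of 28 other plasma membrane carriers, 14 had no count and 4 were tested, with 0 called in edgeR and 0 called in DESeq2. An unadjusted p under 0.05 in edgeR was found for 1 of the 4, against 19.2% of all genes tested. It was the creatine carrier SLC6A8 (log2 fold change -0.72, and -0.33 without shSCR replicate 1). The most counted of these carriers were SLC43A1, a leucine carrier (47.0 ± 7.34 normalized CPM in shPTBP1 and 47.6 ± 5.93 in shSCR), and SLC38A5 (15.1 ± 2.30 and 14.8 ± 3.46). Of the 4 tested, 3 had a log2 fold change below 0, and the median was -0.37. SLC43A1 was at -0.02 and SLC38A5 at 0.02. Of 12 tested carriers of mitochondria and lysosomes, 1 was higher and 0 were lower. The rates over the whole fit were 2.36% higher and 3.19% lower. Separation of shPTBP1 from shSCR without overlap was seen for 2 of the 12, compared with a rate of 12.7% over the whole fit. SLC25A12, the mitochondrial aspartate-glutamate carrier, had 16, 14, 12 and 17 counts in shPTBP1 and 8, 2, 3 and 7 in shSCR, without overlap. It rose by 1.56 on the log2 scale (SE 0.39, edgeR adjusted p = 0.0332), a call that was lost when any library other than shSCR replicate 1 was left out, with the adjusted p then up to 0.0998. SFXN3, a mitochondrial serine carrier and the most counted of that list, had a log2 fold change of -0.05 (interval -0.27 to 0.18).

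Of 25 tested genes of amino acid sensing and mTORC1, 1 was lower and 0 were higher, with a median log2 fold change of 0.04. Among all genes tested, 3.19% were lower and 2.36% higher. The groups did not overlap for 2 of the 25, against 12.7% of all genes tested. MLST8, a subunit of mTORC1 and mTORC2, was at 39.4, 45.0, 41.0 and 37.9 normalized CPM in shPTBP1 and at 60.1, 52.2, 53.3 and 67.2 in shSCR, without overlap. It fell by 0.51 on the log2 scale (SE 0.12, edgeR adjusted p = 0.0243), a call lost in DESeq2 (adjusted p = 0.0781) and without shPTBP1 replicates 1, 3 or 4 or shSCR replicates 1 or 4. LAMTOR2, a part of the lysosomal platform for mTORC1, had a log2 fold change of 0.09 (interval -0.05 to 0.24).

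Among genes that use glutamine, serine or cystine, PSAT1, which makes serine and uses glutamate, was the most counted and had a log2 fold change of 0.09 (interval -0.04 to 0.22). Of 18 tested regulators of transporter genes, 3 had an unadjusted p under 0.05 in edgeR, against 19.2% of all genes tested. After adjustment 0 of the 18 passed in edgeR, and their median log2 fold change was 0 to 2 decimals. The most counted were TXNIP (log2 fold change 0.04) and TRIB3, a target of ATF4 (-0.07). DDIT3, a stress-induced transcription factor named because it passed only in alternatives, had a log2 fold change of 0.23 in DESeq2 (adjusted p = 0.0304).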

How the data were processed

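Total RNA of the 8 MOLM-13 libraries was read by the authors as nanopore cDNA, aligned to hg38 with minimap2, filtered on mapping quality and counted per transcript with StringTie. The versions are not given in the sources used here. The deposited counts are whole numbers without normalization. The authors' second table, named TPM, holds CPM, each count divided by its library's total. Counts were summed per gene by GENCODE version 44, in which 1508 of 254070 transcripts were not found. Those hold 0.0876% to 0.115% of the counts.

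Gene sums entered edgeR 4.0.16 and its quasi-likelihood test (TMM, filterByExpr with a minimum count of 10, group as the only term), with Benjamini-Hochberg adjustment over 7597 genes. Isoform shares were tested with its diffSpliceDGE. IsoformSwitchAnalyzeR was not used. Alternatives were DESeq2 1.42.0, limma 3.58.1 (voom, trend with a pseudocount of 1, diffSplice), other size factors and filters, a replicate block, thinning to the smallest library, removal of a length trend, and leaving out each library. The tests were tried on simulated counts. Counting intervals hold no error other than counting, and PCR copies of a cDNA are not separate molecules.

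The members and the lists were chosen with earlier results of these data known. All 9 members are named, with every isoform of at least 5% of a gene's counts in either group and any called isoform. From each other list the called genes are named, or else the most counted until 2 are named. PTBP1 and PTBP2 are named. R 4.3.3 and Python 3.11.15 were used. Some items of the lists and sequences are not reported here.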

Additional observations from a re-analysis of the deposited data

Results flagged for a closer look

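Among 48 groups of 4 libraries examined, those of the 9 members, PTBP1 and the 14 tested isoforms, 3 had 1 library far from the other three, where chance gives about 1 in 20 groups. SLC38A2 in shSCR replicate 1 was at 319 normalized CPM, while the other shSCR libraries lay between 257 and 267. The share of SLC3A2-201 in shSCR replicate 4 was 36.3%, against 26.7% to 27.2% in the others. The share of SLC38A1-201 in shSCR replicate 2 was 73.6%, against 86.7% to 88.1%. None of these 3 was called in the comparison of the groups.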

How the results depend on the processing

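The 9 transporters as a group gave the same answer in most settings, with 0 called higher in any of the 17 alternatives. The count called lower moved from 0 to 1, SLC1A5 in both cases, with a mean of at least 50 counts and in limma-trend on the log2 CPM plus 1, and stayed at 0 to 0 over the fits that left out 1 library. SLC1A5 kept its sign in all alternatives (log2 fold change -0.45 to -0.31, adjusted p 0.0345 to 0.154). The log2 fold changes of SLC7A1 and SLC38A1 changed sign with the setting and were never called. The count of isoforms called was 1 except for 2 in limma's diffSplice, where SLC1A5-205 was added, and the share of SLC1A5-203 fell by 23.1 to 28.7 percentage points over the fits without 1 library. PTBP1 was called in each of the 16 alternatives that tested it, which leave out the filter at a mean of 50 counts. The count of other transporters called went from 1 to 0 in DESeq2 (where SLC25A12 had no adjusted p), with a mean of at least 50 counts, where SLC25A12 was not tested, in limma-trend and with the replicate block, and was 0 to 1 over the fits without 1 library. The replicate numbers did not pair the libraries, with correlations of -0.0328 to 0.00889 between libraries of the same number and 0 of 8 libraries closest to their own number. With the replicate block SLC1A5 had an adjusted p of 0.0537 and SLC1A5-203 one of 0.00337, and the calls of SLC25A12, MLST8 (adjusted p = 0.0619) and CSF1R were lost.

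Over all genes, edgeR called 242 lower and 179 higher, against 157 and 157 in DESeq2, 272 and 129 in limma-trend, 186 and 137 with the block, and 107 to 190 and 77 to 168 without 1 library. Over all isoforms, limma's diffSplice called 154 against 61 and the fit without shPTBP1 replicate 4 called 39. Depth limited SLC7A6 and SLC1A4, which could not be tested, and left wide intervals for SLC7A5 and SLC7A11.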
